A study of Mus musculus with 6 samples.

Results

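The 10 genes described here are marker genes of astrocytes: the glutamate transporters Slc1a2 and Slc1a3, glutamine synthetase (Glul), apolipoprotein E (Apoe), the bicarbonate cotransporter Slc4a4, connexin 43 (Gja1), the water channel Aqp4, the intermediate filament gene Gfap, the calcium-binding protein gene S100b and the folate enzyme gene Aldh1l1. They were taken by gene name from the deposited transcript table, in which they account for 57 of 115220 transcripts and for 10 of 47729 genes. The libraries hold RNA bound to tagged ribosomes of D2-expressing cells, so the question was how much astrocyte message these immunoprecipitates contained, and whether it differed between the Ctrl and the knockout libraries.

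All mice were adult C57BL/6 males that carried D2Cre, an LSL-Flag-Cas9 allele at Rosa26 and the RiboTag allele, so that cells with Cre made both Cas9 and an HA-tagged Rpl22 ribosomal protein. D2Cre is a BAC transgene driven by the dopamine D2 receptor gene, and it marks the cells in which that transgene is active. Ctrl mice received AAV GFP in the medial prefrontal cortex (mPFC), and Gsk3sKO in mPFC D2 mice received AAV Gsk3sgRNA/GFP, which adds a guide RNA against Gsk3b. Tissue was dissected 3 weeks later, and 3 libraries were made per group. The sources used here do not say whether a library is 1 mouse or a pool, so p-values measure the spread between libraries, which may be technical, and no library of whole tissue was analysed here, so enrichment over the tissue was not computed.

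Astrocytes are the glial cells that clear glutamate from synapses, return it to neurons as glutamine, buffer ions and water, and supply lipids. They enclose synapses with fine processes and blood vessels with endfeet, and both places hold part of their messenger RNA and ribosomes. A RiboTag precipitate is meant to hold the RNA of cells with Cre, and RNA of other cells in the same lysate can be carried along. In bulk RNA, fewer astrocytes and less astrocyte RNA per cell cannot be told apart.

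All 10 astrocyte genes were detected in all 6 libraries, and none of them passed the test between the groups. Levels are given in FPKM (fragments per kilobase of transcript, scaled to the mapped fragments of the library), summed over the transcripts of a gene to a gene total, and differences on the scale of log2(FPKM + 1), as Gsk3sKO minus Ctrl. By limma, 0 of 10 gene totals passed an unadjusted p of 0.05, where 6.56% of all 12874 tested gene totals did. The groups' ranges overlapped for all 10, and 12% of all tested gene totals had ranges that did not overlap. On the scale as deposited, the log2 fold change was below 0 for 6 of 10 genes, with a median of -0.021 against -0.062 over all tested gene totals. The smallest adjusted p among the 10 was 0.792, for Gfap, while 6 of all gene totals (0.0466%) had an adjusted p under 0.05. Individual differences were not excluded by this, as the 95% intervals reached from 0.425-fold to 1.08-fold for Gfap and from 0.507-fold to 1.44-fold for Apoe, and they were narrowest for Slc1a2 (0.854-fold to 1.36-fold).

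**Figure D1:**
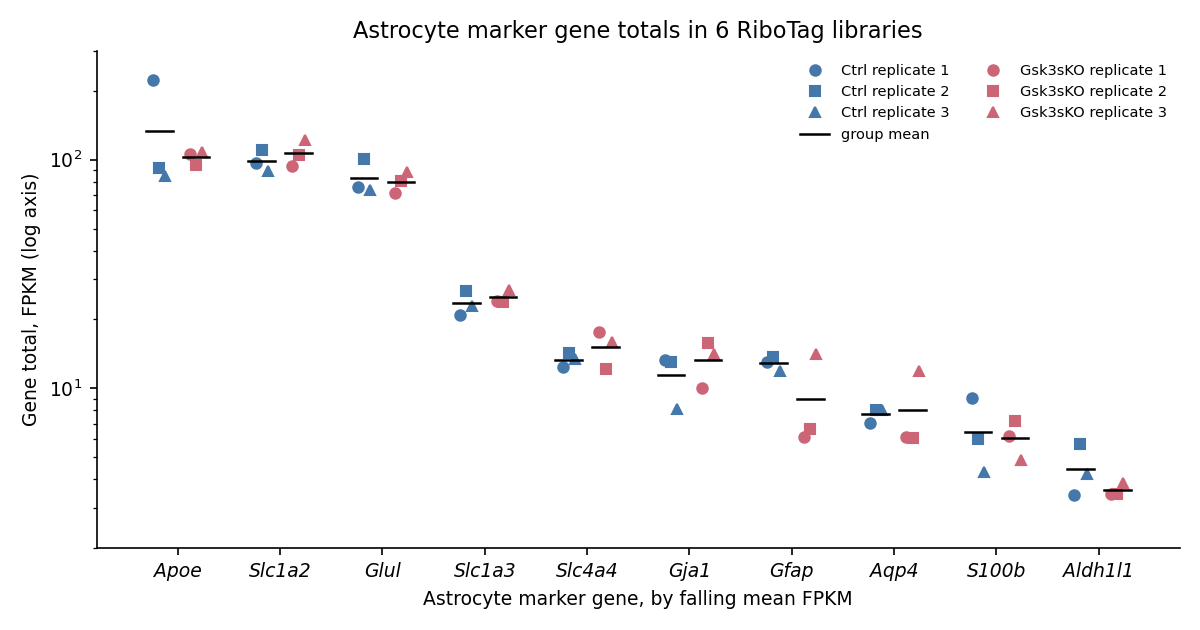
Gene totals (FPKM, log axis) of the 10 astrocyte genes, ordered by falling mean, with 1 point per library and a bar at each group mean. The Ctrl and Gsk3sKO points overlap for every gene. Apoe stood at 223 FPKM in Ctrl replicate 1, and Gfap at 14.2 FPKM in Gsk3sKO replicate 3 beside 6.11 and 6.60 in the other Gsk3sKO libraries.

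**Figure D2:**
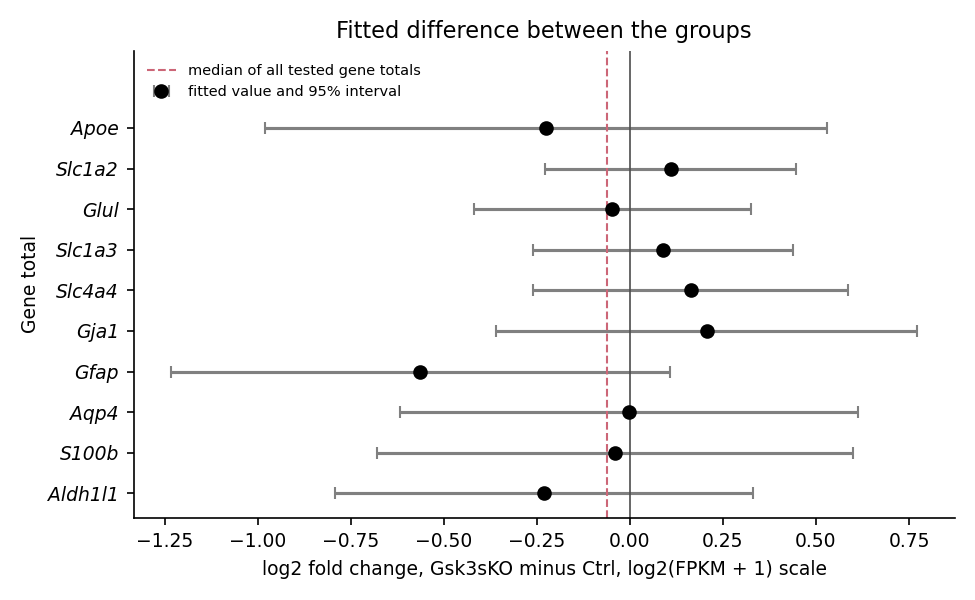
Fitted log2 fold change (Gsk3sKO minus Ctrl, log2(FPKM + 1) scale) of each astrocyte gene total with its 95% interval from limma, and the median over all 12874 tested gene totals as a dashed line. All 10 intervals include 0, and Gfap lies lowest at -0.56.

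The level of the targeted gene was looked at first. The Gsk3b gene total was 35.6, 53.8 and 56.5 FPKM in Ctrl replicates 1 to 3 and 36.9, 37.0 and 33.6 FPKM in Gsk3sKO replicates 1 to 3. Ctrl replicate 1 lay within the Gsk3sKO range, and the difference did not pass (log2 fold change -0.40 ± 0.19 SE, adjusted p = 0.773, limma). A cut by Cas9 need not lower the amount of RNA, so this level alone does not test the labels. The tagged gene Rpl22 ranged from 36.6 to 89.6 FPKM. Drd2, the D2 receptor gene itself, was 1.58, 6.02 and 14.1 FPKM in Ctrl and 8.32, 5.96 and 7.28 FPKM in Gsk3sKO, so Ctrl replicate 1 was lowest in the gene that defines the targeted cells.

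Set against markers of other cells, the 10 astrocyte genes stood, in their median, below the general neuronal genes and above those of the other glia. This rank holds for these 10 genes and not for astrocyte genes at large. Their median over genes was 13.3 FPKM (mean of 6 libraries, lowest gene 4.0 and highest 118), against 194 FPKM for 10 general neuron genes, led by the synaptic genes Snap25 (1086 FPKM), Syt1 (499 FPKM) and Syn1 (231 FPKM). It was 94.6 FPKM for the excitatory neuron list (Nrgn, Camk2a and Slc17a7 highest) and 39.5 FPKM for the inhibitory neuron list (Sst, Gad1 and Npy highest). The oligodendrocyte list had a median of 7.63 FPKM (Mbp and Mobp among the highest), the endothelial list 4.2 FPKM (Flt1, Itm2a and Slco1c1), the microglia list 3.65 FPKM (C1qb and C1qa among the highest), the oligodendrocyte precursor list 2.11 FPKM (Pdgfra, Olig1 and Gpr17) and the mural cell list 1.71 FPKM (Rgs5, Vtn and Acta2). The 4 genes of the D2 neuron list had a median of 4.77 FPKM, with Penk at 182 FPKM, Drd2 at 7.21 FPKM and Gpr6 at 2.34 FPKM. A wider set of 86 astrocyte genes, described below, had a median of 4.19 FPKM, under that of the oligodendrocyte list and near that of the endothelial list. These are descriptions of lists of unequal make-up, and no test was made between lists.

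**Figure D3:**
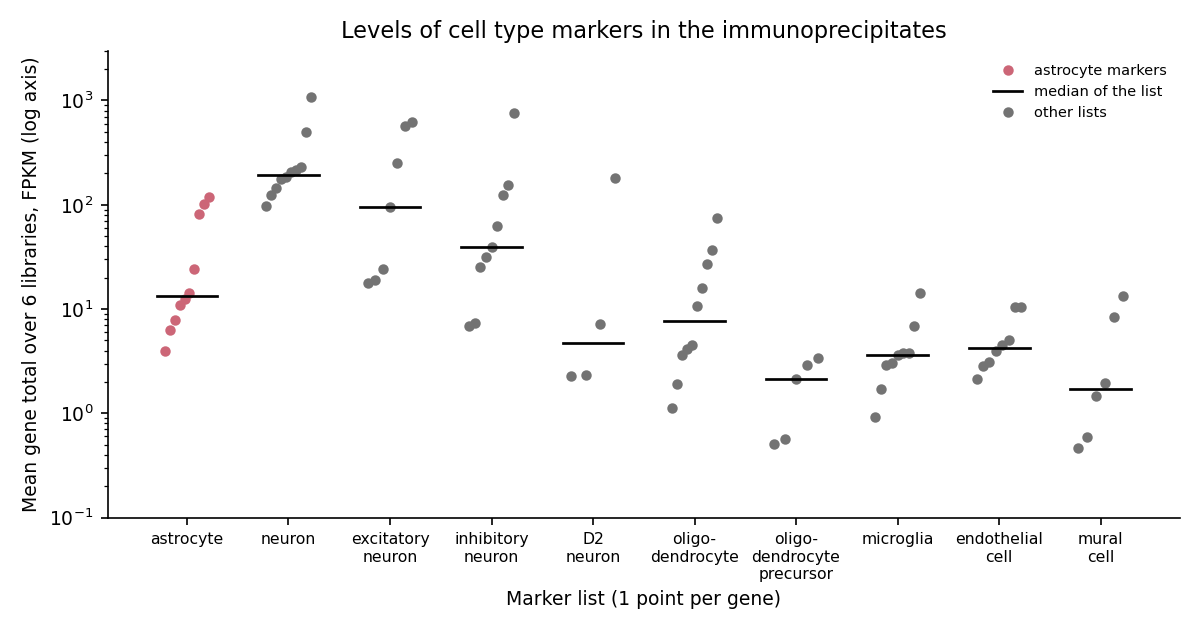
Mean gene total over the 6 libraries (FPKM, log axis) of each gene in the astrocyte list and in 9 lists of markers of neurons, glia and vessels, with a bar at the median of each list. The points of the 10 astrocyte genes run from 4.0 to 118 FPKM. Their median lies below that of the general neuron genes and above the medians of the oligodendrocyte, microglia and vessel lists.

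The summed level of the 10 astrocyte genes was 475, 390 and 321 FPKM in Ctrl and 345, 355 and 410 FPKM in Gsk3sKO. Ctrl replicate 1 was highest and Ctrl replicate 3 lowest, so the Ctrl libraries enclosed all the Gsk3sKO libraries on this scale. The summed FPKM of all transcripts itself differed, from 414548 to 608528 in Ctrl and from 385795 to 422109 in Gsk3sKO. As a share of it, the 10 genes made up 0.0781%, 0.0708% and 0.0774% in Ctrl and 0.0817%, 0.0891% and 0.106% in Gsk3sKO, so that on this scale every Gsk3sKO library lay above every Ctrl library. Rescaling each library to the same summed FPKM, an alternative chosen after seeing the data, moved the median log2 fold change of all gene totals from -0.062 to 0.25 and that of the 10 genes from -0.021 to 0.32. It turned the share of lower genes among all gene totals called from 79.3% to 21.2%, and 0 of the 10 genes were called on it. Much of the excess in Ctrl replicate 1 came from Apoe: without Apoe the sum, as deposited, was 252, 298 and 236 FPKM in Ctrl and 239, 260 and 302 FPKM in Gsk3sKO. The full sum amounted to between 10.5% and 16.1% of the summed neuron list in the same library, and between 7.71% and 10.4% without Apoe.

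Levels were ordered in 3 steps. Apoe, Slc1a2 and Glul formed the top, with means over all libraries of 118, 103 and 81.9 FPKM. Apoe exceeded Slc1a2 in 2 of 6 libraries only, and their ranges overlapped, while Slc1a2 exceeded Glul in 6 of 6 libraries. Slc1a3 followed, 3.38-fold below Glul in the mean, and its range met neither that of Glul above nor that of Slc4a4 below. Slc4a4, Gja1, Gfap, Aqp4, S100b and Aldh1l1 made up the third step, from 14.3 down to 4.0 FPKM, and each of these overlapped its neighbours in range. Among all tested gene totals, Apoe was above 96.5% and Aldh1l1 above 28.6%.

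The glutamate transporters and glutamine synthetase, which take up synaptic glutamate and convert it to glutamine, had the smallest standard errors of the group difference among the 10 genes. Slc1a2 (ENSMUSG00000005089, chr2:102658659-102790784, plus strand, GRCm38) encodes GLT-1, the main glutamate transporter of forebrain astrocytes. Its gene total was 96.7, 110 and 89.4 FPKM in Ctrl replicates 1 to 3 and 94.0, 105 and 122 FPKM in Gsk3sKO. The highest value was in Gsk3sKO replicate 3 and the lowest in Ctrl replicate 3, and the other values interleaved. The group means were 98.7 ± 10.4 and 107 ± 13.9 FPKM (SD, n = 3 each), with a log2 fold change of 0.11 ± 0.15 (SE, limma, adjusted p = 0.916).

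Slc1a2-202 accounted for between 88.0% and 92.8% of the Slc1a2 total. Its coding region ends differently from that of Slc1a2-201, in which another last coding exon is read. These ends correspond to the forms named GLT-1a and GLT-1b, and they are shown because they tell these 2 transcripts apart. The last 30 coding bases that both share are in lower case, and the bases particular to each (chr2:102781463-102781531 and chr2:102777656-102777691, plus strand, up to the stop codon) are in capitals.
Slc1a2-202: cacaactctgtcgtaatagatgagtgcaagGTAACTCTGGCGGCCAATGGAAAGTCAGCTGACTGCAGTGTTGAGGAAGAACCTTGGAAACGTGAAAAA
Slc1a2-201: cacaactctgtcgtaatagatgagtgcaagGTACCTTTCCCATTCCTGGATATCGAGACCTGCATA
The own part is 69 bases in Slc1a2-202, with 572 codons in all, and 36 bases in Slc1a2-201, with 558 codons. The coding regions also differ at their 5′ ends, which are not shown. Slc1a2-202 was 87.0, 96.7 and 80.6 FPKM in Ctrl and 84.7, 97.2 and 108 FPKM in Gsk3sKO. Slc1a2-201 did not exceed 0.956% of the gene total in any library. Slc1a2-204 ends close to it (chr2:102778097, against 102778106) and reached 1.73% in Gsk3sKO replicate 3. Whether Slc1a2-204 has the same coding end was not compared, so the level of Slc1a2-201 need not be that of GLT-1b. The short noncoding Slc1a2-210 ranged from 0 to 7.33 FPKM, with the 0 in Gsk3sKO replicate 2.

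Slc1a3 (ENSMUSG00000005360, chr15:8634124-8710764, minus strand) encodes GLAST, the second astrocyte glutamate transporter. Its gene total was 20.8, 26.7 and 23.0 FPKM in Ctrl and 24.1, 23.8 and 26.9 FPKM in Gsk3sKO. All Gsk3sKO values lay within or just above the Ctrl range (log2 fold change 0.09 ± 0.15 SE, adjusted p = 0.935, limma). Below this even total, the division among transcripts moved widely. The coding transcript Slc1a3-201 was 20.3, 17.5 and 14.2 FPKM in Ctrl and 17.0, 11.6 and 16.1 FPKM in Gsk3sKO. Slc1a3-202, annotated as a retained intron with no coding region, was 0.422, 8.44 and 7.07 FPKM in Ctrl and 6.56, 11.7 and 8.96 FPKM in Gsk3sKO. It was nearly missing from Ctrl replicate 1 and level with the coding form in Gsk3sKO replicate 2, so that its share ran from 2.02% to 49.3%. Neither transcript passed the test (log2 fold change -0.21 ± 0.23 SE and 1.05 ± 0.75 SE, adjusted p = 0.902 and 0.89, limma). Without Ctrl replicate 1 the difference of Slc1a3-202 was 0.18.

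In Slc1a3-202 the 1263 bases between exons 4 and 5 of the 10 exons of Slc1a3-201 are kept (chr15:8649586-8650848, minus strand). The 5′ border of this intron is shown because reads across it tell the transcripts apart, with 30 bases of exon in capitals and 30 bases of the kept intron in lower case, from chr15:8650819-8650878.
Slc1a3-202 donor side: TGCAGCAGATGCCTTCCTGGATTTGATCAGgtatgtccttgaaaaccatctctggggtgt
The intron opens with gt, the usual letters of a splice donor. The division of reads between overlapping transcripts is an estimate by the authors' transcript assembler, and reads across this border were not counted here.

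Glul (ENSMUSG00000026473, chr1:153899944-153909723, plus strand) encodes glutamine synthetase, which joins ammonia to glutamate. Glul stood at 76.2, 101 and 73.4 FPKM in Ctrl and 71.7, 80.5 and 88.6 FPKM in Gsk3sKO. Ctrl replicate 2 was highest and Gsk3sKO replicate 1 lowest, and the means differed by a log2 fold change of -0.047 ± 0.16 (SE, limma, adjusted p = 0.966). Glul-201 held at least 96.2% of the total in each library. Oligodendrocytes also express Glul, and the summed oligodendrocyte list ranged from 139 to 209 FPKM with Ctrl replicate 1 lowest.

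Apoe (ENSMUSG00000002985, chr7:19696109-19699188, minus strand) encodes the main lipid carrier protein that astrocytes secrete in the brain. In FPKM the gene total was 223, 91.6 and 85.1 in Ctrl and 106, 94.8 and 109 in Gsk3sKO. Ctrl replicate 1 stood more than 2 times above all other libraries, and the other 5 lay between 85.1 and 109 FPKM. Apoe was the only one of the 10 genes with such a value. In Ctrl replicate 1 this was so for 165 gene totals, or 1.28% of those tested. The group means were 133 ± 77.8 and 103 ± 7.25 FPKM (SD, n = 3 each), with a log2 fold change of -0.23 ± 0.33 (SE, limma, adjusted p = 0.926). Without Ctrl replicate 1 the direction turned, to 0.22 ± 0.13 (SE, adjusted p = 0.891). Microglia express Apoe too, and the summed microglia list was also highest in Ctrl replicate 1, at 53.9 FPKM against 31.3 to 41.9 FPKM in the other libraries. All 9 genes of that list were above 0 in the mean, and its part in the Apoe value was not tested.

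The excess of Apoe in Ctrl replicate 1 lay mostly in 1 transcript. Apoe-206 was 206, 68.4 and 63.5 FPKM in Ctrl and 83.0, 55.7 and 81.0 FPKM in Gsk3sKO, between 58.8% and 92.2% of the total. Apoe-209 and Apoe-205 hold the same 933 coding bases as Apoe-206 and differ from it outside the coding region. Apoe-209 ranged from 3.95 FPKM in Gsk3sKO replicate 1 to 23.3 FPKM in Gsk3sKO replicate 3, and Apoe-205 from 1.08 to 7.53 FPKM. The short Apoe-203 ranged from 1.54 FPKM in Gsk3sKO replicate 3 to 15.8 FPKM in Gsk3sKO replicate 2. None of the 4 passed the test, and the smallest adjusted p among them was 0.907 (limma). Without Gsk3sKO replicate 3, Apoe-203 passed the unadjusted threshold with a log2 fold change of 0.93 ± 0.26 SE (adjusted p = 0.832).

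The genes of ion, water and junction transport, which serve the buffering of the space around synapses and vessels, showed overlapping groups. Slc4a4 (ENSMUSG00000060961, chr5:88886818-89239653, plus strand) encodes the sodium bicarbonate cotransporter NBCe1. Its gene total was 12.4, 14.2 and 13.4 FPKM in Ctrl and 17.7, 12.1 and 15.9 FPKM in Gsk3sKO. A pair of Gsk3sKO libraries lay above all Ctrl libraries and the third below them (log2 fold change 0.16 ± 0.18 SE, adjusted p = 0.903, limma).

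Slc4a4 is read from a distal and an internal promoter, and the proteins that result differ at their amino ends, with the form from the internal start best known from kidney. The 2 promoters are shown because their starts divide the transcripts in the table. Each runs from 250 bases before to 50 after the start annotated by RefSeq on GRCm38.p6, with the bases from the start on in capitals. The distal one lies at chr5:88887010-88887309 and the internal one at chr5:89027716-89028015, both on the plus strand.
Distal: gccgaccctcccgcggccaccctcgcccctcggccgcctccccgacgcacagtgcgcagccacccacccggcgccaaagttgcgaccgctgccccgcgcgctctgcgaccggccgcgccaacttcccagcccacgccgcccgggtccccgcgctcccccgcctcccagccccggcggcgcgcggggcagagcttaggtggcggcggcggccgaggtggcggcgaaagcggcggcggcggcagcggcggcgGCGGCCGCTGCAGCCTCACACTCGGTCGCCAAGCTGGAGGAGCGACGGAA
Internal: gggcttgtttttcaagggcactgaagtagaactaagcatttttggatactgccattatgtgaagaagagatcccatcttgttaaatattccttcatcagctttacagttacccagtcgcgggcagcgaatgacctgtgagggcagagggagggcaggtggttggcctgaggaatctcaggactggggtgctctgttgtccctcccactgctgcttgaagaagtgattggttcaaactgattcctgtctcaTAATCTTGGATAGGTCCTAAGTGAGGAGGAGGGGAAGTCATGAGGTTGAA
Transcripts that start within 1000 bases of the distal start summed to 7.84, 12.6 and 9.98 FPKM in Ctrl and 11.3, 12.1 and 11.6 FPKM in Gsk3sKO, between 63.4% and 100% of the gene total. Those near the internal start summed to 2.66, 0.154 and 0.166 FPKM in Ctrl and 0.0429, 0 and 1.55 FPKM in Gsk3sKO, so that Ctrl replicate 1 and Gsk3sKO replicate 3 stood above the other libraries. The 780-base Slc4a4-204 made up nearly all of this in Ctrl replicate 1 (2.62 FPKM). In Gsk3sKO replicate 3 it was 0.855 FPKM, beside 0.692 FPKM of Slc4a4-201. Slc4a4-203, with the full coding region of 1035 codons from the internal start, did not exceed 0.0708 FPKM. The distal Slc4a4-207, of 1079 codons, held between 51.3% and 91.1% of the total. The 371-base Slc4a4-206 ranged from 0 FPKM in Gsk3sKO replicate 2 to 6.31 FPKM in Gsk3sKO replicate 1, the library in which the gene total was highest.

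Gja1 (ENSMUSG00000050953, chr10:56377330-56402513, plus strand) encodes connexin 43, the main gap junction protein between astrocytes. The table lists 1 transcript of it, where the GENCODE M21 annotation lists 8. Its level was 13.3, 13.01 and 8.08 FPKM in Ctrl and 10.03, 15.8 and 14.1 FPKM in Gsk3sKO. Ctrl replicate 3 was lowest and Gsk3sKO replicate 2 highest (log2 fold change 0.21 ± 0.25 SE, adjusted p = 0.908, limma).

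Aqp4 (ENSMUSG00000024411), the water channel of the endfeet around vessels, likewise has 1 transcript in the table and 11 in the annotation. Its level was 7.03, 8.003 and 7.985 FPKM in Ctrl and 6.08, 6.05 and 11.9 FPKM in Gsk3sKO. Gsk3sKO replicate 3 lay above all Ctrl libraries and the other Gsk3sKO libraries lay below them, and the means were 7.67 ± 0.555 and 8.02 ± 3.38 FPKM (SD, n = 3 each). The log2 fold change was -0.0032 ± 0.27 (SE, limma, adjusted p = 0.999).

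Gfap (ENSMUSG00000020932, chr11:102887336-102900912, minus strand) encodes the intermediate filament protein that rises in reactive astrocytes, and it had the most distant group means of the 10 genes. Its gene total was 13.1, 13.6 and 11.8 FPKM in Ctrl and 6.11, 6.60 and 14.2 FPKM in Gsk3sKO. Replicates 1 and 2 of Gsk3sKO were near a common low value, and replicate 3 was the highest of all libraries. The means were 12.8 ± 0.919 and 8.96 ± 4.52 FPKM (SD, n = 3 each). The difference did not pass the test (log2 fold change -0.56 ± 0.29 SE, unadjusted limma p = 0.0892, adjusted p = 0.792, exact permutation p = 0.4). It rested on which Gsk3sKO libraries were used, since without Gsk3sKO replicate 3 the log2 fold change was -0.91 ± 0.18 SE and passed the unadjusted threshold (adjusted p = 0.585), and over all libraries left out singly it ran from -0.91 to -0.36.

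Gsk3sKO replicate 3 was highest in 4 of the 10 genes, Slc1a2, Slc1a3, Gfap and Aqp4, and lowest in none, and Ctrl replicate 3 was lowest in 4 and highest in none. The mean standardised level of the 10 genes was 0.0011, 0.58 and -0.56 in Ctrl and -0.40, -0.26 and 0.63 in Gsk3sKO. Ctrl replicate 2 and Gsk3sKO replicate 3 were thus the high libraries. The summed endothelial list was 20.7, 72.5 and 37.3 FPKM in Ctrl and 28.4, 32.4 and 63.7 FPKM in Gsk3sKO, and the summed mural cell list 18.9, 40.1 and 21.99 FPKM in Ctrl and 14.8, 20.8 and 41.3 FPKM in Gsk3sKO. Both vessel lists were highest in the same pair of libraries, 1 of each group. All 8 endothelial genes and 4 of 6 mural genes had a mean of at least 1 FPKM, and the part of vessel tissue in the astrocyte levels was not tested.

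Gfap is read into forms that differ in their carboxy ends, and 2 of them were in the table with coding regions from the same start. Gfap-201 corresponds to GFAPα, the common filament form, and Gfap-202 to GFAPδ. They share their coding bases up to the last part of the coding region. The own part is 128 bases in Gfap-201, with 430 codons in all, and 122 bases in Gfap-202, with 428 codons. Gfap-201 held between 84.8% and 99.6% of the gene total and was 12.8, 12.6 and 11.2 FPKM in Ctrl and 5.34, 6.58 and 12.01 FPKM in Gsk3sKO (log2 fold change -0.62 ± 0.31 SE, adjusted p = 0.842, limma). Gfap-202 was 0.304, 1.09 and 0.642 FPKM in Ctrl and 0.771, 0.0246 and 2.03 FPKM in Gsk3sKO, with a share of up to 14.3%. It was highest in Gsk3sKO replicate 3 and nearly missing in Gsk3sKO replicate 2, and it was too low on average to be tested.

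S100b (ENSMUSG00000033208, chr10:76253853-76261159, plus strand) encodes a calcium-binding protein of astrocytes, and some oligodendrocytes make it too. Its level, from 1 transcript, was 9.08, 5.98 and 4.31 FPKM in Ctrl and 6.19, 7.15 and 4.86 FPKM in Gsk3sKO. The Ctrl libraries spanned all of the Gsk3sKO range (log2 fold change -0.040 ± 0.28 SE, adjusted p = 0.987, limma). Ctrl replicate 1 was highest, as for Apoe.

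Aldh1l1 (ENSMUSG00000030088, chr6:90486427-90600203, plus strand) encodes a folate enzyme that is widely used to mark astrocytes, and it was the lowest of the 10. The 3 Ctrl libraries held 3.39, 5.67 and 4.23 FPKM and the Gsk3sKO libraries 3.43, 3.42 and 3.84 FPKM. Ctrl replicate 1 lay below the 3 Gsk3sKO libraries and the other Ctrl libraries above them (log2 fold change -0.23 ± 0.24 SE, adjusted p = 0.896, limma).

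Aldh1l1 had the sharpest division among transcripts. Aldh1l1-203 was 3.30, 0.0349 and 0.367 FPKM in Ctrl and 3.35, 3.42 and 3.84 FPKM in Gsk3sKO, whereas Aldh1l1-201 was 0, 5.51 and 3.38 FPKM in Ctrl and 0 in all Gsk3sKO libraries. The first held nearly all of the total in Ctrl replicate 1 and in all Gsk3sKO libraries, and the second nearly all in Ctrl replicate 2 and most in Ctrl replicate 3. The groups did not overlap for Aldh1l1-203, by the small step from 3.30 to 3.35 FPKM, as was so for 11.2% of all tested transcripts. Both transcripts have 23 exons and the same 2706 coding bases, and they differ outside the coding region, with lengths of 4175 and 3052 bases. As for Slc1a3, the division of reads between these overlapping transcripts is an estimate by the authors' transcript assembler. Whether the cells changed from 1 transcript to the other was not tested. Neither passed the test (log2 fold change 1.31 ± 0.59 SE and -1.61 ± 0.76 SE, both with an adjusted p of 0.842, limma). Without Ctrl replicate 1 the values were 1.93 and -2.42, past the unadjusted threshold but with limma adjusted p of 0.365 and 0.31.

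**Figure D4:**
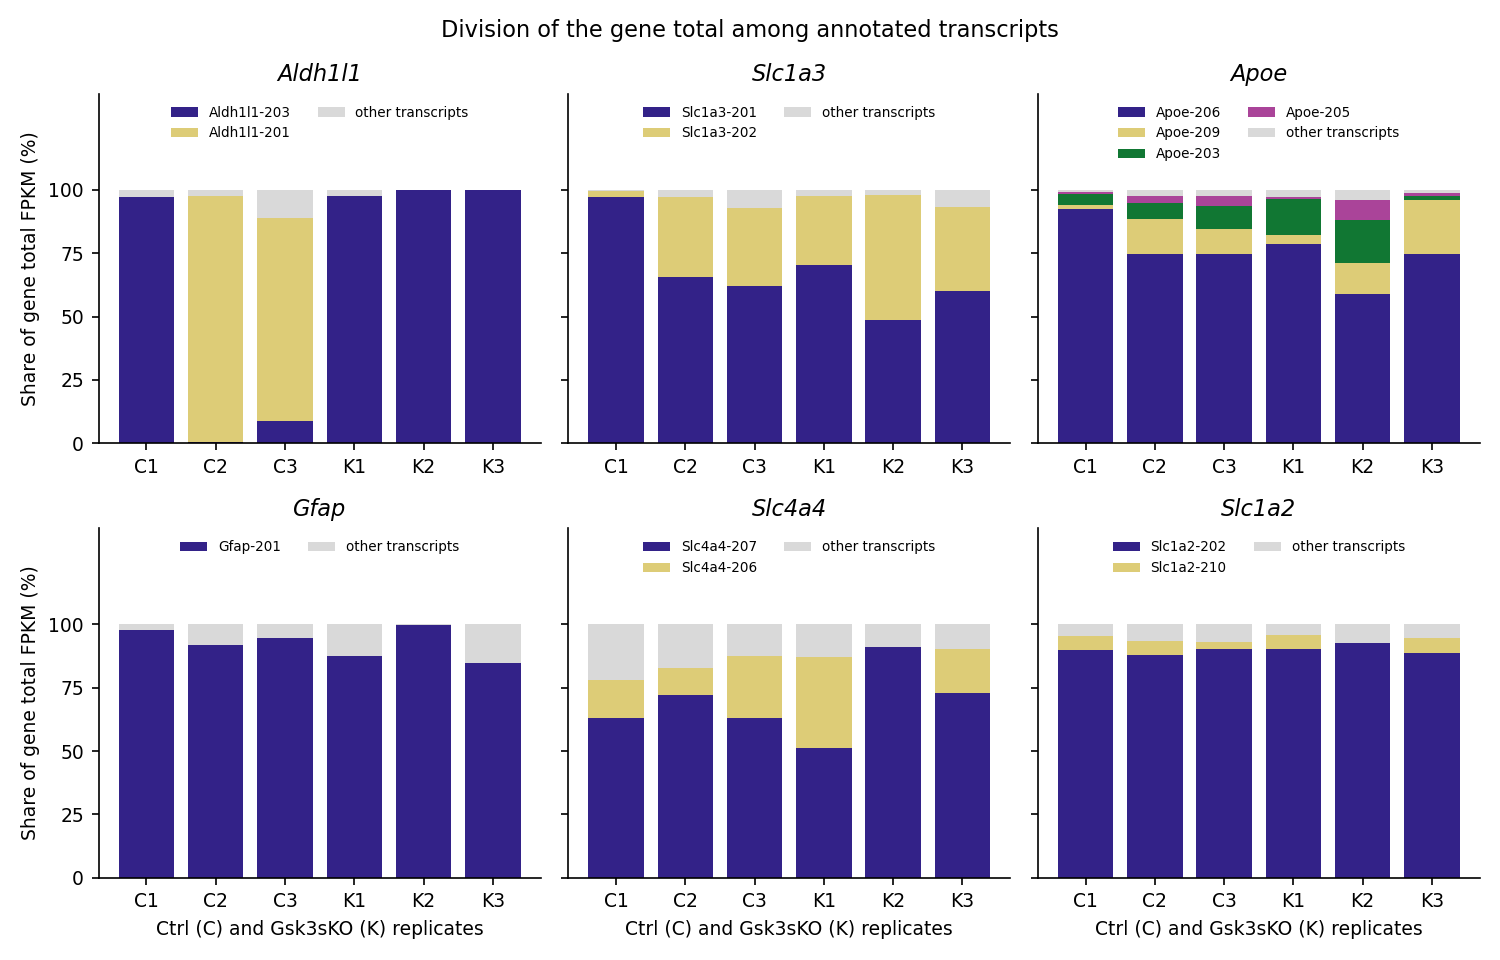
Share of the gene total (percent of FPKM) held by each named transcript of 6 astrocyte genes in Ctrl (C) and Gsk3sKO (K) replicates 1 to 3, with the remaining transcripts in grey. The shares are estimates by the authors' transcript assembler. Most of the Aldh1l1 total is assigned to either of a pair of transcripts that code for the same protein. Slc1a3-202 runs from 2.02% to 49.3%, and Slc1a2-202 stays between 88.0% and 92.8%.

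Of the 57 listed transcripts of the 10 genes, 5 were at 0 in all libraries, and 19 passed the filter on low values with at least 1 in each gene. By limma, 0 of these 19 had an unadjusted p under 0.05, where 5.56% of all 21584 tested transcripts did. With 1 library left out, Gfap-201 and Apoe-203 passed without Gsk3sKO replicate 3, and both Aldh1l1 transcripts without Ctrl replicate 1. Aldh1l1-203 also passed after rescaling to the same summed FPKM. For 1 of the 19, Aldh1l1-203, the groups did not overlap, as was so for 11.2% of all tested transcripts. RefSeq promoters of 300 bases were matched for 9 of the 10 genes, 12 promoters in all. Transcripts that start near the matched Slc1a2 promoter held between 0.0579% and 1.60% of that gene's total. The start of the most abundant Slc1a2 transcript was therefore not searched. The letters TTCNNNGAA, the core of a STAT site, were found in 2 of the 12 promoters, Gfap and Slc1a3. They were found in 8.30% of all 32851 promoters, on either strand. The letters TATAAA were found in 2 of 12 and in 13.6% of all promoters, and CCAAT in 5 of 12 and in 37.4%.

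The levels of the 10 genes over the libraries were compared with all other genes of at least 5 FPKM in the mean. The 5 genes of 8459 whose profile was most like the mean standardised profile were Mfsd11 (Pearson r = 0.985 over the 6 libraries), Ncoa7 (0.963), Arl14ep (0.959), Purg (0.958) and Ptprz1 (0.947). Mfsd11 was 7.15, 9.37 and 4.43 FPKM in Ctrl and 5.53, 5.87 and 11.2 FPKM in Gsk3sKO, high in the same pair of libraries as the vessel lists. These are the highest of many correlations over 6 points that share their libraries, and they are given as a description.

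A wider set of 86 astrocyte genes in 6 lists was described in the same way. Of these, 70 passed the filter on low values and 4 had an unadjusted p under 0.05 by limma, all of them lower in Gsk3sKO. That is 5.71% of those tested, against 6.56% of all gene totals in either direction and 5.2% lower, a share near the background. The median log2 fold change was -0.074, against -0.062 over all gene totals. Leaving out Ctrl replicate 2 gave a count of 2, and leaving out Ctrl replicate 3, Gsk3sKO replicate 1 or Gsk3sKO replicate 3 gave 7 each. Rescaling to the same summed FPKM gave a count of 6, where 1115 of all 12935 gene totals were called. None of the 4 genes was among those 6.

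In the list of glutamate and GABA handling, 1 of 7 tested genes was called, where 6.56% of all gene totals were. It was lower in Gsk3sKO, while the median log2 fold change of the list was 0.25 and 3 of 7 were below 0. Slc38a3, a glutamine transporter of the astrocyte membrane, was 2.72, 5.05 and 2.69 FPKM in Ctrl and 1.54, 1.39 and 1.31 FPKM in Gsk3sKO. All Gsk3sKO libraries were below all Ctrl libraries (log2 fold change -0.86 ± 0.30 SE, unadjusted limma p = 0.019, adjusted p = 0.688, exact permutation p = 0.1), and without Ctrl replicate 2 the gene was no longer called. The groups did not overlap for 1 of the 7 tested genes of the list, and for 12% of all tested gene totals. The most abundant genes of the list, Abat (28.8 FPKM in the mean), Glud1 (27.3 FPKM) and Aldh5a1 (12.3 FPKM), are also used by neurons and did not pass. Of the genes of ion, water and gap junction proteins 0 of 10 passed, with the sodium pump subunit gene Atp1b2 (43.9 FPKM) and the scaffold gene Dtna (10.9 FPKM) among the most abundant.

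In the list of lipid transport and metabolism 0 of 10 passed, where 6.56% of all gene totals did. Clu, which like Apoe encodes a secreted lipid carrier, was the most abundant at 82.4 FPKM in the mean, before the desaturase gene Scd2 at 77.6 FPKM and the cholesterol synthesis gene Hmgcs1 at 61.5 FPKM. Clu was 91.0, 95.6 and 67.1 FPKM in Ctrl and 84.7, 62.7 and 93.2 FPKM in Gsk3sKO, with no raised value in Ctrl replicate 1 as was seen for Apoe. In the list of transcription factors and receptors 0 of 13 passed, with the glutamate receptor gene Grm3 (29.3 FPKM), Nfib (24.1 FPKM) and Lhx2 (10.1 FPKM) highest.

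In the list of other markers 1 of 20 tested genes was called, lower in Gsk3sKO, where 6.56% of all gene totals were called in either direction. Mt3, a metallothionein that binds zinc and copper, was 43.4, 52.1 and 40.1 FPKM in Ctrl and 28.7, 24.0 and 31.6 FPKM in Gsk3sKO. The groups were apart (log2 fold change -0.67 ± 0.16 SE, unadjusted limma p = 0.00324, adjusted p = 0.496, exact permutation p = 0.1). That was so for 4 of the 20 tested genes of the list, and for 12% of all tested gene totals. Sparcl1 (737 FPKM), Mt3 (36.6 FPKM) and Aldoc (35.5 FPKM) were the most abundant of this list. Sparcl1, a secreted matrix protein gene, is also expressed by neurons and vessels.

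In the list of reactivity, 10 of 20 genes were too low to be tested, and 2 of the 10 tested fell, where 6.56% of all gene totals were called in either direction. The list as a whole did not lean that way, with 4 of 10 below 0 and a median log2 fold change of 0.072. H2-D1, a class I antigen presentation gene whose reads can be shared with near-identical class I genes, was 18.2, 13.5 and 17.1 FPKM in Ctrl and 11.1, 7.49 and 8.75 FPKM in Gsk3sKO (log2 fold change -0.78 ± 0.20 SE, unadjusted limma p = 0.00475, adjusted p = 0.588, exact permutation p = 0.1). C4b, a complement gene with the close copy C4a, was 1.75, 3.002 and 3.97 FPKM in Ctrl and 1.34, 0.621 and 0.822 FPKM in Gsk3sKO (log2 fold change -0.996 ± 0.33 SE, unadjusted limma p = 0.0161, adjusted p = 0.688, exact permutation p = 0.1). In both genes all Gsk3sKO libraries were below all Ctrl libraries, and 0.1 is the smallest exact p that 3 against 3 libraries allow. The groups did not overlap for 4 of the 10 tested genes of this list, and for 12% of all tested gene totals. C4b was no longer called without Ctrl replicate 2 or without Ctrl replicate 3. Neither gene is particular to astrocytes. S100a10 (31.2 FPKM) and Vim (10.8 FPKM), the other abundant genes of the list, did not pass. Stat3, a transcription factor of the reactive response, was 7.08, 6.83 and 5.88 FPKM in Ctrl and 8.54, 7.11 and 10.2 FPKM in Gsk3sKO, higher in each Gsk3sKO library than in any Ctrl library, and it did not pass (log2 fold change 0.33, adjusted p = 0.81, limma). S1pr3 went the other way, with 2.86, 1.80 and 1.64 FPKM in Ctrl and 1.13, 1.41 and 1.14 FPKM in Gsk3sKO. It was lower in each Gsk3sKO library than in any Ctrl library and did not pass (log2 fold change -0.46, adjusted p = 0.812, limma). Chosen like Stat3 after their values were seen, Lcn2 and C3, which mark strongly reactive astrocytes, had means of 0.0038 and 0.233 FPKM, and Timp1 was listed at 0 in all libraries. Serpina3n and Synm of the same list, chosen in the same way, were above 0 in all libraries, with means of 6.92 and 9.56 FPKM. Neither passed the test (log2 fold change 0.31 and 0.17, adjusted p = 0.856 and 0.942, limma). Low values of Lcn2, C3 and Timp1 therefore do not stand for the whole list.

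**Figure D5:**
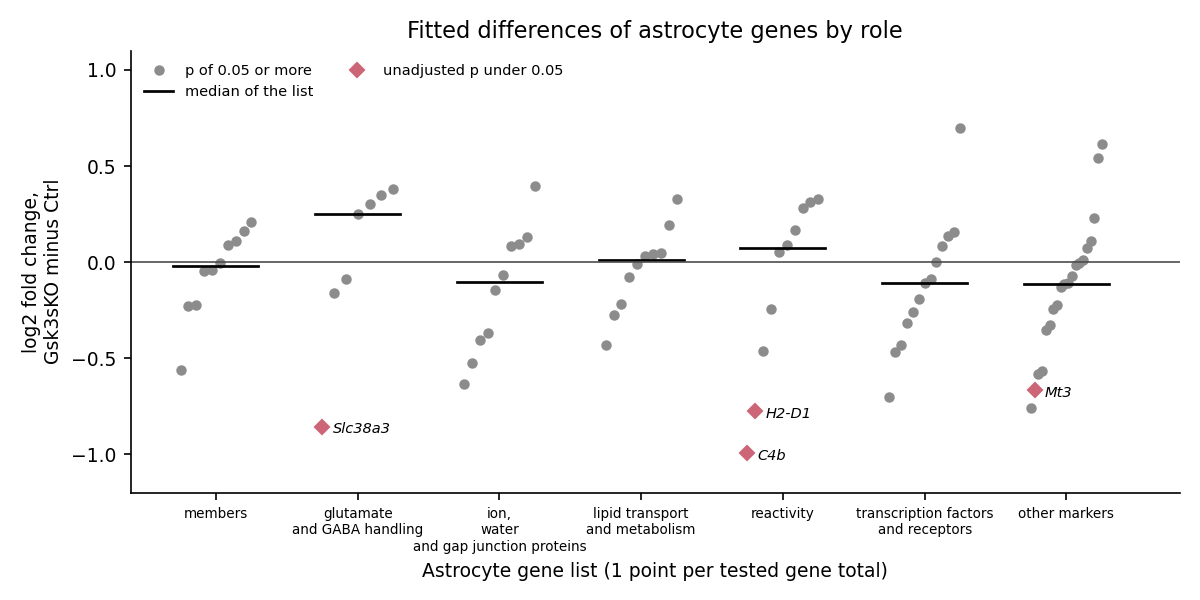
Fitted log2 fold change (Gsk3sKO minus Ctrl) of each tested gene total in the 10 astrocyte markers and in the 6 wider astrocyte lists, with diamonds for genes with an unadjusted limma p under 0.05 and a bar at each list's median. The 4 diamonds, Slc38a3, H2-D1, C4b and Mt3, are all below 0, and no diamond is among the 10 markers.

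Some markers of other glia were called beside these values, where 6.56% of all gene totals were. In the oligodendrocyte list 4 of 10 genes were lower in Gsk3sKO at an unadjusted limma p under 0.05 (Mog, Mag, Cldn11 and Cnp), and in the microglia list 2 of 8 tested (C1qa and C1qb), none of them with an adjusted p under 0.607. The oligodendrocyte list was divided, with 5 of 10 genes below 0, a median log2 fold change of -0.056, and Ermn higher in each Gsk3sKO library (3.35 to 5.10 FPKM) than in any Ctrl library (2.55 to 3.32 FPKM) without passing the test. In the microglia list 6 of 8 tested genes were below 0, with a median of -0.41, and P2ry12 was at 0.72. The summed oligodendrocyte list was 139 to 209 FPKM in Ctrl and 153 to 194 FPKM in Gsk3sKO, and the summed microglia list 41.4 to 53.9 FPKM in Ctrl and 31.3 to 40.5 FPKM in Gsk3sKO. In the neuron, inhibitory neuron, D2 neuron, oligodendrocyte precursor, endothelial and mural lists 0 genes passed, and in the excitatory neuron list 1 of 7 (Tbr1). The part of other cells in H2-D1 and C4b was not tested.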

How the data were processed

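Ribosome-associated RNA of 3 Ctrl and 3 Gsk3sKO in mPFC D2 libraries was measured by RNAseq, and libraries were grouped by their labels. The authors deposited FPKM values per transcript and library. The submitters' processing notes name HISAT2 2.1.0, SAMtools 1.9, StringTie 1.3.4d and GRCm38, without settings, which are not given in the sources read. The authors' fold, p-value and q-value columns were not used. Every other value column was used (0 left out). The files hold no counts. At the best spacing found, 29.1% to 44.9% of low values lay within 0.05 reads of a whole number, so depth was taken as unknown.

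FPKM were summed by gene identifier. For the test between groups, limma 3.58.1 (R 4.3.3) was applied (lmFit, eBayes with a trend, 2-sided) on log2(FPKM + 1) over the 6 libraries, without covariates, for gene totals and transcripts with a mean of at least 1 FPKM. A fold on this scale understates the change of low genes. A call is an unadjusted p under 0.05, and adjusted p-values (Benjamini-Hochberg) are over all features tested. An exact permutation test of 3 against 3 libraries cannot give a p below 0.1. The model was tested on simulated data. Annotation was GENCODE M21, in which 114237 of 115220 transcripts were found. The text names the 10 genes, their transcripts with a mean of at least 1 FPKM and a share of at least 5% in a library, the 3 most abundant genes of each list, the astrocyte genes called, Gsk3b, Rpl22 and the 5 genes most alike. Gfap-202, Slc1a2-201, Slc1a2-204, Slc4a4-201, Slc4a4-203, Slc4a4-204 and genes described as chosen after their values were seen, and Ermn, P2ry12, C1qc and the called genes of other cell types, fall outside that rule. The members and lists were chosen with earlier results of these data known. Alternatives were another pseudocount, other filters, 2 rescalings, another (to the same summed FPKM) added after seeing the data, no moderation, a replicate block, the highest transcript in place of the total, and leaving out each library. Some items that the rule names are not reported here.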

Additional observations from a re-analysis of the deposited data

How the results depend on the processing

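The number of the 10 astrocyte genes called was 0 under the other pseudocount, filters and rescalings, without moderation, with the block and with the highest transcript, and between 0 and 1 with 1 library left out (Gfap, without Gsk3sKO replicate 3). Their median log2 fold change ran from -0.029 to 0.029 over these settings, other than a rescaling to the summed FPKM, and from -0.069 to 0.060 with 1 library left out. The wider astrocyte lists had 4 called genes, 2 at a mean of at least 5 FPKM, and between 2 and 7 with 1 library left out. They had 6 with the replicate block, 6 after rescaling to the median ratio and 6 after rescaling to the same summed FPKM. Over all features, 1200 transcripts were called, 1917 without a filter and 590 at a mean of at least 5 FPKM. Rescaling to the median ratio of genes moved the share of lower calls among gene totals from 79.3% to 65.6%, and it turned Aqp4 to 0.049, S100b to 0.0071, Glul to 0.0097, Glul-201 to 0.021 and Apoe-205 to 0.0087. A pseudocount of 0.1 turned Apoe-203 to -0.069. With the highest transcript in place of the gene total, Slc1a3 was -0.21 and Aldh1l1 1.31. Rescaling to the same summed FPKM, added after seeing the data, moved the median of the 10 genes to 0.32 and turned Aqp4 to 0.32, Aldh1l1 to 0.056, S100b to 0.28, Glul to 0.31, Apoe to 0.14, Apoe-205 to 0.19, Glul-201 to 0.33, Slc1a3-201 to 0.14 and Slc4a4-206 to 0.14.

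With 1 library left out, the log2 fold change crossed 0 in Aqp4 (-0.29 to 0.14), Gja1 (-0.0069 to 0.38), S100b (-0.26 to 0.20), Glul (-0.13 to 0.095), Apoe (-0.47 to 0.22), Apoe-206 (-0.71 to 0.13), Apoe-209 (-0.11 to 1.04), Apoe-203 (-0.44 to 0.93), Apoe-205 (-0.71 to 0.31), Glul-201 (-0.11 to 0.10), Slc1a2-210 (-1.12 to 0.40) and Slc4a4-206 (-0.69 to 0.74). In none of these had the value over all libraries passed the test, and the cause was not tested. Replicate numbers are shared by the groups, but the deviations of same-numbered libraries correlated at -0.027, -0.011 and -0.081, so the numbers were not taken as pairs. With the replicate block 0 of the 10 were called, and 821 gene totals and 1103 transcripts against 844 and 1200. Read depth is unknown, so the precision of low values such as those of Aldh1l1 is not known.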
